A study of Homo sapiens with 8 samples.

Results

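Expression of 8 regulators of apoptosis was examined in MOLM-14, a cell line established from human acute myeloid leukaemia. They comprised the survival genes BCL2, MCL1, BCL2L1 and CFLAR and the death-promoting genes BAX, BAK1, BCL2L11 and BID. The 8 genes were taken by their symbol in the platform annotation, and all 8 were measured, each by 1 probe set, among 14884 named genes. One group expressed a hairpin against ENTPD1, the gene of the surface enzyme CD39 (shCD39, 4 arrays), and the other a scrambled control hairpin (shCTRL, 4 arrays). Cells of either group had received doxycycline for 72 h, so the agent itself was shared. The labels' protocols speak of clones as the source of the RNA, and the sample labels call the 4 arrays of each group technical replicates. All p-values therefore measure only the spread between these arrays, and no spread between independent cultures is known. In part the labels spell the line MOML14, which was read as the same line.

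In the mitochondrial route to apoptosis, BAX and BAK1 open pores in the outer mitochondrial membrane. BCL2, MCL1 and BCL2L1, which encodes BCL-XL, hold them back, and BH3-only proteins such as BIM (gene BCL2L11) and BID relieve that hold or activate the pore formers. BID links this route to the death receptors, where CFLAR, which encodes FLIP, limits activation of caspase-8. Acute myeloid leukaemia cells commonly depend on BCL2 or MCL1 for survival, and BCL2 is the target of the drug venetoclax. These proteins are controlled to a large degree after transcription, and an array reads only RNA. Each gene had a single probe set, so splice forms with opposite functions, such as those of BCL2L1 and MCL1, were not told apart.

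The deposited values are log2 expression values. Probe sets differ in their response, so the levels of single genes were not compared with each other. A level was only placed above or below the median of all genes, as a rough guide. ENTPD1, the targeted gene, read 2.14 to 2.95 in shCD39 and 2.88 to 4.12 in shCTRL (log2 fold change -0.79, SE 0.25, limma adjusted p = 0.178). The difference had the direction of a knockdown, but the groups overlapped, and the values lay below the median of all genes (4.30), where arrays respond weakly. Array medians lay between 3.13 and 3.17, and pairs of arrays correlated at 0.980 to 0.992 over the named genes. The shCD39 array 4 stood apart from its group: its mean correlation was 0.985 with the other shCD39 arrays and 0.989 with shCTRL, while each of the others had 0.982 to 0.986 with shCTRL. Results on each of the 8 genes are therefore given without this array as well. The array was singled out for its likeness to shCTRL, so leaving it out favours larger differences. Genes with a limma adjusted p under 0.05 rose from 0.0941% to 2.84% of all genes without it. Of 20 markers of a myeloid leukaemia line, 10 were measured. FLT3, AZU1, CD4, SPI1 and LYZ were above the median of all genes, and KIT (2.94 ± 0.16 in shCTRL) was below it.

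None of the 8 genes passed the threshold of an adjusted p of 0.05 (limma, Benjamini-Hochberg adjustment over all genes), where 0.0941% of all genes did. At an unadjusted p under 0.05 there were 4 (3 higher, 1 lower in shCD39), against 14.7% of all genes. In the same 4 genes the arrays of the groups did not overlap, where 7.85% of all genes had this pattern. CFLAR, BAX and MCL1 were the higher ones (3.61% of all genes were higher without overlap), and BCL2 was the lower one (4.23% of all genes). The 8 genes were chosen with earlier results of these data known, so these shares are a description. Their median log2 fold change was 0.06, with 6 of 8 positive, against 0.01 and 52.0% positive over all genes.

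**Figure D1:**
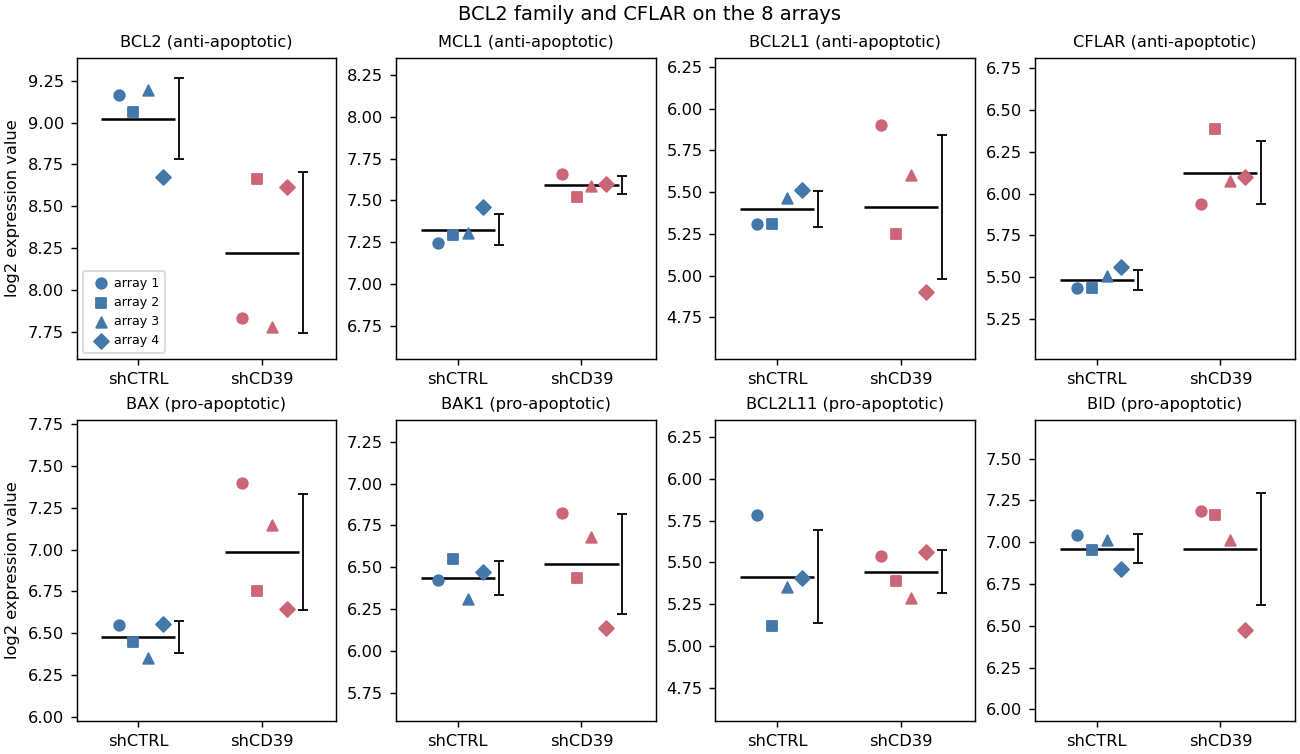
Log2 expression value of each gene on each array, 1 panel a gene, with shCTRL in blue and shCD39 in red; symbols give the array number, horizontal lines the mean and bars the SD of 4 arrays, and every panel spans the same log2 range. The groups are separate in BCL2, MCL1, CFLAR and BAX and overlap in the other 4 genes.

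Among the survival genes, BCL2 was the one with a lower value. It encodes the founding member of the family, a membrane protein that binds and holds the BH3 segment of its pro-apoptotic relatives. BCL2 read 7.83, 8.66, 7.78 and 8.61 in shCD39 arrays 1 to 4, and 9.17, 9.07, 9.19 and 8.67 in shCTRL arrays 1 to 4. Arrays 1 and 3 of shCD39 were far below all shCTRL arrays, while arrays 2 and 4 of shCD39 lay just under the lowest one, shCTRL array 4. The means were 8.22 ± 0.48 and 9.02 ± 0.24 (log2, mean ± SD, n = 4 arrays each). The log2 fold change was -0.80 (SE 0.21, 95% interval -1.27 to -0.33), or 1.74-fold lower. The limma adjusted p was 0.130, and the exact 2-sided permutation p was 0.0286, the smallest that 4 against 4 arrays can give. Of all genes, 2.24% had a lower limma p. Without shCD39 array 4 the log2 fold change was -0.93 and the gene passed the threshold (adjusted p = 0.0489), as did 2.84% of all genes. Leaving out any other single array gave no pass, with a limma adjusted p of up to 0.326, reached without shCTRL array 1.

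CFLAR had the lowest p of the 8 genes. Its product resembles caspase-8 without a working active site and sits in the death receptor complex. CFLAR read 5.94, 6.38, 6.07 and 6.10 in shCD39 and 5.44, 5.44, 5.51 and 5.56 in shCTRL, arrays 1 to 4 in turn. All 4 shCD39 arrays were above all shCTRL arrays, with array 2 the highest, and the difference between the means exceeded the SD of either group. The means were 6.12 ± 0.19 and 5.49 ± 0.06, a log2 fold change of 0.64 (SE 0.12, 95% interval 0.39 to 0.89) or 1.56-fold. The limma adjusted p was 0.0771 (exact permutation p = 0.0286), and 0.188% of all genes had a lower p. It passed without shCD39 array 4 (log2 fold change 0.65, adjusted p = 0.0269), as did 2.84% of all genes. It also passed with arrays weighted by quality (adjusted p = 0.0353), as did 0.833% of all genes. The same held when genes below the median level were left out (adjusted p = 0.0436), which leaves fewer genes to adjust over. There 0.860% of the remaining genes passed. Leaving out single arrays otherwise gave an adjusted p of up to 0.243, reached without shCTRL array 1.

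MCL1, a survival protein of short half-life, showed a small and even difference. It read 7.66, 7.52, 7.59 and 7.60 in shCD39 and 7.24, 7.29, 7.31 and 7.46 in shCTRL. All shCD39 arrays were above all shCTRL arrays, of which number 4 came closest. The log2 fold change was 0.27 (SE 0.10, 95% interval 0.05 to 0.48), or 1.20-fold, from 7.33 ± 0.09 to 7.59 ± 0.06 (limma adjusted p = 0.242, exact permutation p = 0.0286). It was 0.26 without shCD39 array 4 (adjusted p = 0.215).

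BCL2L1 gave no difference in the mean, but a wide spread within shCD39. It read 5.90, 5.25, 5.60 and 4.90 in shCD39 against 5.31, 5.31, 5.47 and 5.51 in shCTRL. Arrays 1 and 3 of shCD39 were above every shCTRL array, and arrays 2 and 4 were below every one. The log2 fold change was 0.01 (SE 0.18, adjusted p = 0.983), with a 95% interval of -0.39 to 0.42 that leaves room for changes of either sign. Without shCD39 array 4 it was 0.18.

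BAX was the pro-apoptotic gene with the clearest difference. Its promoter and that of BAK1, the other pore former, are shown because these are the pore formers, each with a single annotated start; the difference between their changes was not tested. The sequences are from RefSeq (GRCh38.p14) and cover the 250 bases before the annotated start, on the gene's strand, at chr19:48954625-48954874 (plus strand) for BAX and chr6:33580277-33580526 (minus strand) for BAK1. Capitals mark the E-box CACGTG, which reads the same on both strands, the GC box GGGCGG or CCGCCC, and the CCAAT box CCAAT or ATTGG; no motifs overlap.
BAX: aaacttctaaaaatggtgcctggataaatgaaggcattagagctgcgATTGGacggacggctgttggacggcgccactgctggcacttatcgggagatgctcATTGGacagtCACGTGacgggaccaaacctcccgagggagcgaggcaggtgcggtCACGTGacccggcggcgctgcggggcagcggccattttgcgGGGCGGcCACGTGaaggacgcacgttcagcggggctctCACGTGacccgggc
BAK1: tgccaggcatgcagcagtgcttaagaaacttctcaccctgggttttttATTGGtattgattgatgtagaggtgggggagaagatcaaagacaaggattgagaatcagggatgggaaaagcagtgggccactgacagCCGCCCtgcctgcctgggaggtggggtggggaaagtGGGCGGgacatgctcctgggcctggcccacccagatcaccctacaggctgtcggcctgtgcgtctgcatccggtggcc

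The BAX window held the E-box 4 times, the GC box 1 time and the CCAAT box 2 times. Of 35116 windows of the same length in the RefSeq table, some of which belong to 1 gene, 6.34% held at least 1 E-box and 5 windows held 4 or more. The BAK1 window held 0 E-boxes, 2 GC boxes and 1 CCAAT box. A GC box was found in 42.6% and a CCAAT box in 32.0% of all windows. These are matches of letters, and binding was not measured.

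BAX read 7.40, 6.75, 7.15 and 6.65 in shCD39 and 6.55, 6.45, 6.35 and 6.55 in shCTRL, arrays 1 to 4 in turn. Arrays 1 and 3 of shCD39 were the highest, and shCD39 array 4 was only just above the highest shCTRL array. The means were 6.99 ± 0.35 and 6.48 ± 0.10, a log2 fold change of 0.51 (SE 0.16, 95% interval 0.16 to 0.86) or 1.42-fold. The limma adjusted p was 0.172 and the exact permutation p 0.0286. Without shCD39 array 4 the log2 fold change was 0.62 (adjusted p = 0.0556), and without shCD39 array 1 it was 0.37.

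BAK1, the partner of BAX in the membrane, read 6.82, 6.44, 6.68 and 6.14 in shCD39 and 6.42, 6.55, 6.31 and 6.47 in shCTRL. The shCD39 arrays ran from below to above the shCTRL range, with array 4 the lowest. The log2 fold change was 0.08 (SE 0.15, 95% interval -0.24 to 0.40, adjusted p = 0.847), or 0.21 without shCD39 array 4.

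The BH3-only genes showed no difference beyond the spread of the arrays. BCL2L11 read 5.54, 5.39, 5.29 and 5.56 in shCD39, all inside the shCTRL range of 5.12 to 5.78. Its log2 fold change was 0.03 (SE 0.14, 95% interval -0.28 to 0.34, adjusted p = 0.954), or -0.01 without shCD39 array 4. BID, which caspase-8 cleaves into its active form, read 7.19, 7.16, 7.01 and 6.47 in shCD39 and 6.84 to 7.04 in shCTRL. The shCD39 array 4 was the lowest of all 8 arrays, arrays 1 and 2 were above every shCTRL array, and array 3 lay inside the shCTRL range. The log2 fold change was -0.0023 (SE 0.15, 95% interval -0.34 to 0.34, adjusted p = 0.997), or 0.16 without shCD39 array 4.

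**Figure D2:**
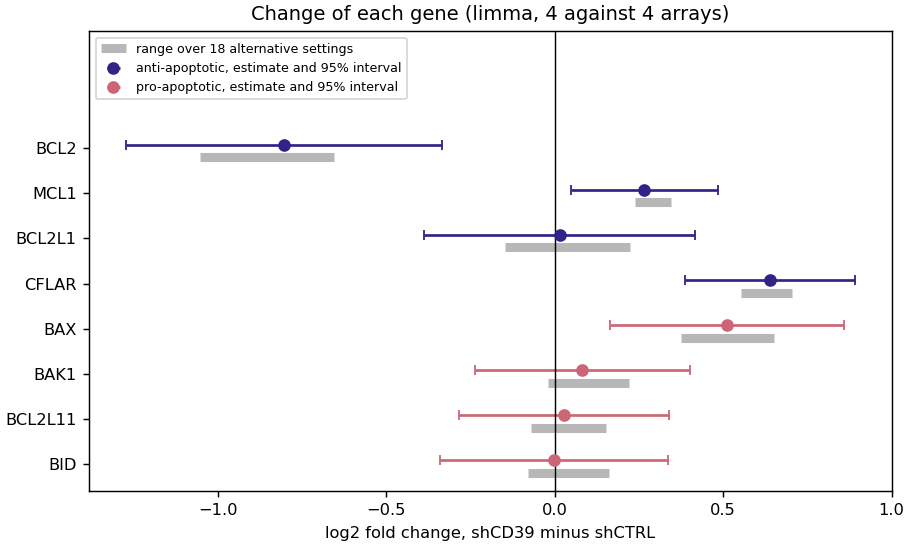
Log2 fold change of each gene (shCD39 minus shCTRL, limma, 4 against 4 arrays) with its 95% interval, anti-apoptotic genes in dark blue and pro-apoptotic genes in red; grey bars span the estimates over 18 alternative settings. The intervals of BCL2, MCL1, CFLAR and BAX lie on one side of 0, and those of the other 4 genes span 0.

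The arrays of shCD39 did not deviate alike. Relative to the shCTRL mean, BCL2 stood at -1.20 and -1.24 in shCD39 arrays 1 and 3 and at -0.36 and -0.41 in arrays 2 and 4. BAX stood at 0.92 and 0.67 in arrays 1 and 3 and at 0.28 and 0.17 in arrays 2 and 4. BCL2L1 and BAK1 were likewise higher in arrays 1 and 3 than in arrays 2 and 4. CFLAR and MCL1 did not follow this order: CFLAR was highest in array 2 (0.90) and lowest in array 1 (0.45), and MCL1 lay between 0.20 and 0.33 in all 4. Nor did BCL2L11 (0.12, -0.03, -0.13 and 0.14 in shCD39 arrays 1 to 4) or BID (0.23, 0.20, 0.05 and -0.49). Replicates of a group have no order, and the labels name no batch.

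**Figure D3:**
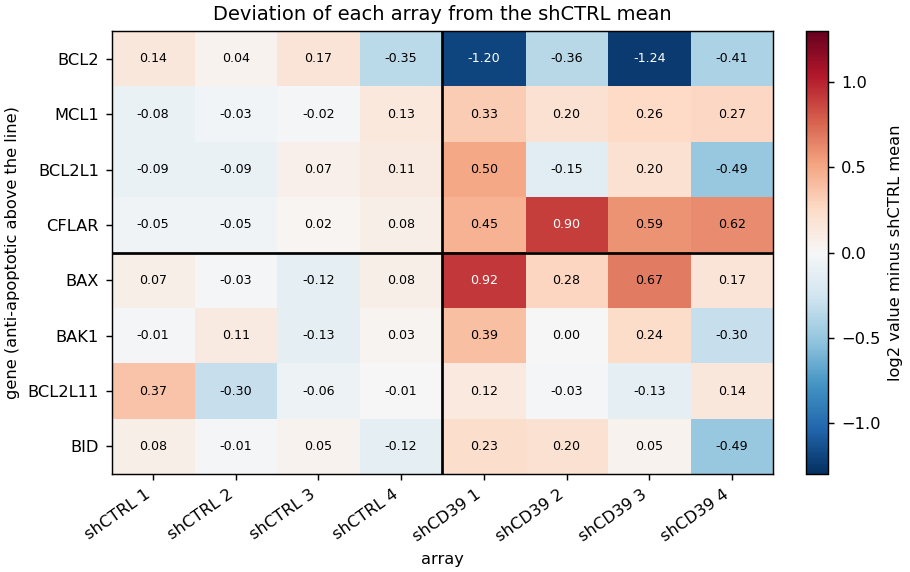
Log2 value of each gene on each array minus the mean of the shCTRL arrays, with arrays in columns, genes in rows, anti-apoptotic genes above the horizontal line and shCD39 right of the vertical line. BCL2 is lowest and BAX highest in shCD39 arrays 1 and 3, whereas CFLAR and MCL1 are positive in all 4 shCD39 arrays.

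The balance of the sides was described as the difference, on each array, between the deviations of a pro- and an anti-apoptotic gene. This gave 16 pairs, which share genes and arrays, and no test was made on them. All 4 pairs with BCL2 shifted toward the pro-apoptotic gene, and all 4 pairs with CFLAR shifted toward CFLAR. BCL2 had the lowest and CFLAR the highest log2 fold change of the 8 genes, so these signs were fixed by the single genes. BAX minus BCL2 changed by 1.31 on the log2 scale, with values of 0.58 to 2.12 on the shCD39 arrays and -0.29 to 0.43 on the shCTRL arrays. Its SD was 0.82 in shCD39 and 0.30 in shCTRL, and the shift was 1.56 without shCD39 array 4. BAX minus BCL2L1 was much more even: it changed by 0.50, and the shCD39 arrays lay between 0.42 and 0.67 (SD 0.12) against -0.19 to 0.17. BAX minus CFLAR changed by -0.13, and its shCD39 arrays ran from -0.62 to 0.47, on either side of the shCTRL arrays. The groups were separate in 4 of the 16 pairs. Each of these held BCL2, BAX or CFLAR, whose groups were separate already as single genes. No share over all gene pairs was computed. BAX minus BCL2 and BAX minus BCL2L1 were higher in shCD39, and BCL2L11 minus CFLAR (-0.61) and BID minus CFLAR (-0.64) were lower. With MCL1 as the partner the sign differed between the pro-apoptotic genes: BAX minus MCL1 changed by 0.24, but BAK1, BCL2L11 and BID minus MCL1 by -0.18, -0.24 and -0.27. The pairs with BCL2L1 ran from 0.50 (BAX) to -0.02 (BID). The sign of the balance thus depended on the pair. A difference between genes shows that they changed unequally, not which of them changed.

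**Figure D4:**
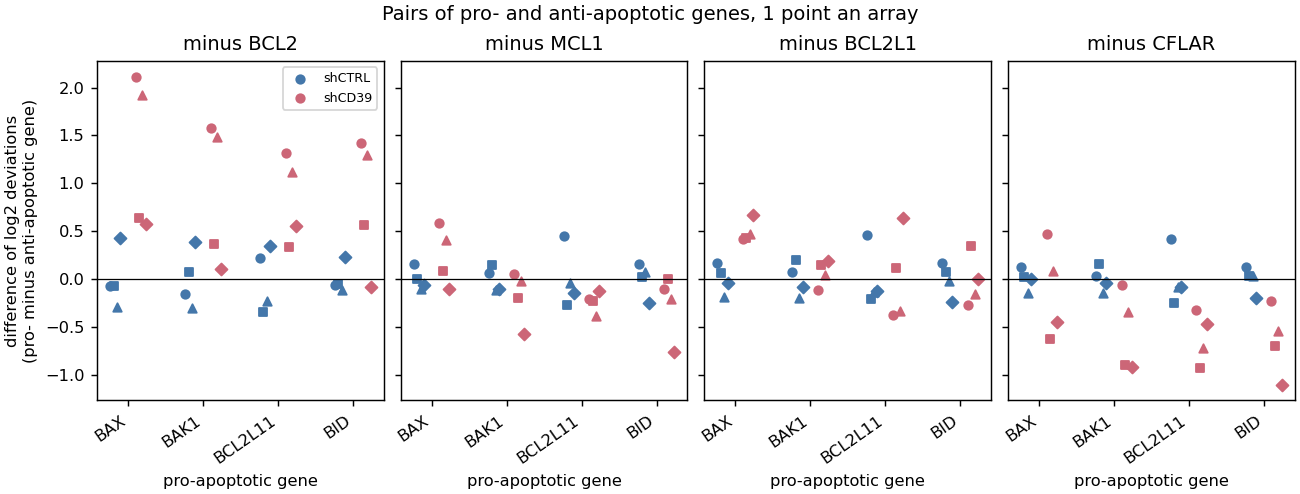
Difference between the log2 deviations of a pro-apoptotic gene (horizontal axis) and an anti-apoptotic gene (panel title), 1 point an array, shCTRL in blue and shCD39 in red, with circle, square, triangle and diamond for arrays 1 to 4. Points of shCD39 lie above 0 for BAX minus BCL2 (0.58 to 2.12) and below 0 for BID minus CFLAR.

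For genes with an absolute log2 fold change of at least 0.3, the 3 protein-coding genes of most similar pattern were sought among 11915. The measure was the root mean square difference between log2 deviations over the 8 arrays. BCL2 was nearest to NEMP1, a protein of the nuclear envelope (0.121), PSPH, the last enzyme of serine synthesis (0.130), and IPO9, a nuclear import receptor (0.135). BAX was nearest to NDUFAF8, an assembly factor of respiratory complex I (0.0751), FYB1, an adaptor of immune signalling (0.0978), and TRIAP1, a p53-induced survival protein (0.100). CFLAR was nearest to TTYH2, a protein of the tweety family (0.104), DAPP1, an adaptor of phosphoinositide signalling (0.110), and CPT1A, which brings fatty acids into mitochondria (0.124). None of these 9 genes passed the threshold, with log2 fold changes from -0.96 (NEMP1) to 0.60 (TTYH2).

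The remaining genes of the death pathways were described from 10 lists of 107 genes, of which 67 were measured. Of the 67, 1 passed the threshold, TP53INP1, and it was higher. A p53-induced gene of cell death and autophagy, TP53INP1 read 5.48 to 6.02 in shCD39 and 4.07 to 4.56 in shCTRL (log2 fold change 1.48, SE 0.15, limma adjusted p = 0.00716). Without shCD39 array 4 the log2 fold change was 1.58 (adjusted p = 0.00271). It was not called without shCTRL array 1, where limma called 0 genes and 1574 had an unadjusted p under 0.05. The 67 genes had a median of -0.05 with 38.8% positive, against 0.01 and 52.0% over all genes. At an unadjusted p under 0.05 there were 9 higher (13.4%) and 10 lower (14.9%), against 6.54% and 8.13% of all genes. These all-gene shares are also the background for the counts of single lists below. The groups were separate in 6 higher (8.96%) and 4 lower (5.97%), against 3.61% and 4.23% of all genes.

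Of 4 measured genes on the list of other BCL2-like proteins, 1 was higher and 3 lower, with 0 past the threshold (2 at an unadjusted p under 0.05). BCL2A1, a short-lived relative of MCL1 found in blood cells, read 3.69 to 3.89 in shCD39 and 2.96 to 3.39 in shCTRL. All 4 shCD39 arrays were above all shCTRL arrays (log2 fold change 0.60, SE 0.12, adjusted p = 0.0783). The gene passed without shCD39 array 4, as did 2.84% of all genes. Its level is below the median of all genes, where arrays respond weakly. BCL2L12, a more distant relative, read 5.77 ± 0.10 against 6.12 ± 0.11 without overlap (-0.35, SE 0.11, adjusted p = 0.167). Beside BCL2, it was thus another gene of the family with lower values throughout.

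The 10 measured genes among other pore formers and BH3-only proteins had a median of -0.07, with 4 positive and 0 past the threshold (1 at an unadjusted p under 0.05). BNIP3L, a mitophagy receptor with a BH3-like segment, stood at 0.41 (SE 0.14, limma adjusted p = 0.215). BIK, a BH3-only protein of the endoplasmic reticulum, had 0.25 (SE 0.20). BBC3 (PUMA) and PMAIP1 (NOXA), the BH3-only genes best known as p53 targets, had 0.05 (SE 0.21) and -0.21 (SE 0.17); they were picked for their role after their values were seen.

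Downstream of the pore, 6 genes of the apoptosome and of released mitochondrial proteins had a median of -0.03, with 0 past the threshold and 0 at an unadjusted p under 0.05 (limma). APAF1, the scaffold of the apoptosome, had 0.22 (SE 0.16) and the protease HTRA2 -0.17 (SE 0.13). Of the inhibitors of apoptosis 5 were measured, with a median of -0.07 and 0 past the threshold (1 at an unadjusted p under 0.05). BIRC5 (survivin), which also serves in mitosis, had -0.36 (SE 0.14, adjusted p = 0.257), and XIAP, a direct inhibitor of caspases, -0.12 (SE 0.11). None of the 9 caspase genes of the list had a probe set with a single symbol, so they were not analysed here.

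On the death receptor side 1 of 10 receptor and ligand genes was measured, TNF, at 0.46 (SE 0.21, adjusted p = 0.347). The 13 measured adaptors and necroptosis genes had a median of -0.01, with 6 positive and 0 past the threshold (3 higher and 2 lower at an unadjusted p under 0.05). CASP8AP2 is a protein linked to caspase-8 activation and histone gene expression. It read 6.70 to 7.65 in shCD39 and 7.44 to 7.93 in shCTRL (-0.62, SE 0.20, adjusted p = 0.180). It was lower past the threshold without shCD39 array 4, its highest shCD39 value, where 2.84% of all genes passed. RBCK1 (HOIL-1), a part of the linear ubiquitin ligase, had -0.50 (SE 0.18). FADD, the adaptor to which CFLAR and caspase-8 bind, had 0.07 (SE 0.10) and was picked for that role after its value was seen.

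Of 7 measured genes that act on MCL1 protein, 0 passed (1 higher and 1 lower at an unadjusted p under 0.05), with a median of 0.04. USP13, a deubiquitinase reported to stabilise MCL1, read 5.88 to 6.09 in shCD39 and 6.40 to 6.54 in shCTRL (-0.52, SE 0.10, adjusted p = 0.0783), without overlap, and CDC20, which directs mitotic degradation, had -0.37 (SE 0.18). USP13 was lower past the threshold without shCD39 array 4, where 2.84% of all genes passed. In the p53 list, the 5 measured genes beside TP53INP1 had a median of 0.04, with 4 positive and 0 past the threshold. Of these 5, 2 were higher at an unadjusted p under 0.05 (40%, limma), against 6.54% of all genes. Transcription factors known to act on these 8 genes were lower in 12 of 15, with a median of -0.13 and 0 past the threshold (0 higher and 5 lower at an unadjusted p under 0.05). Over all genes 48.0% were lower, and 8.13% were lower at an unadjusted p under 0.05. DDIT3 (CHOP), which can raise BIM and lower BCL2, had -0.90 (SE 0.31, adjusted p = 0.208), and MYC had -0.61 (SE 0.16, adjusted p = 0.131). In shCTRL array 4 they read 4.04 and 9.35, inside the range of shCD39. Without that array either was lower past the threshold, where 0.322% of all genes passed. For both genes it was the shCTRL array nearest to shCD39, so leaving it out favours larger differences.

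**Figure D5:**
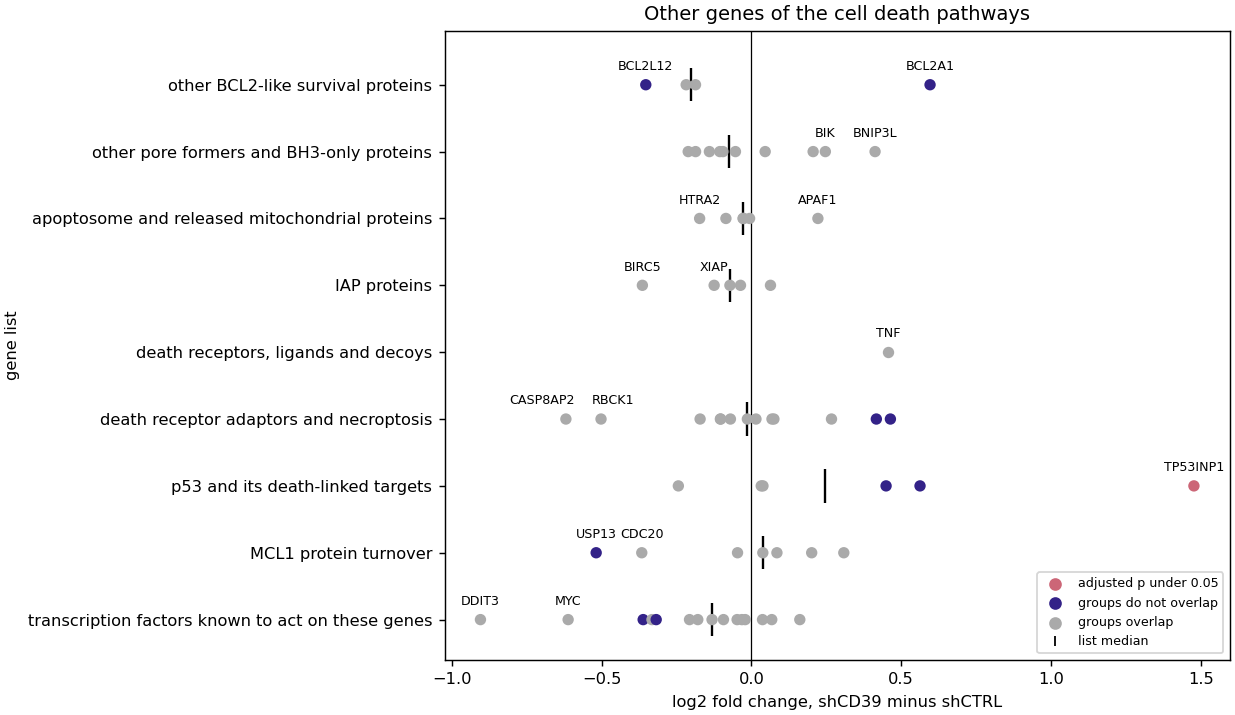
Log2 fold change (shCD39 minus shCTRL) of each measured gene of the other death pathway lists, 1 row a list, with red for an adjusted p under 0.05, dark blue for groups that do not overlap, grey for the rest and a black bar for the list median. TP53INP1 at 1.48 is the red point; BCL2A1 and BCL2L12 stand on opposite sides of 0.

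Of the cell type markers, 0 passed the threshold (limma). At an unadjusted p under 0.05, 4 of 10 myeloid markers (LYZ, TYROBP, CSF1R and KIT) were higher. So was 1 of 6 T and NK cell markers, and 1 of 2 B cell markers was lower. Over all genes, 6.54% were higher and 8.13% lower at this p. The mean log2 level of the 10 myeloid markers was 7.19 to 7.39 in shCTRL and 7.38 to 7.81 in shCD39. The median log2 fold change of the list was 0.08, with 6 positive and 4 negative. LYZ, TYROBP and CSF1R were higher without overlap, as were 3.61% of all genes, at 1.07, 1.06 and 1.36, though short of the threshold. MPO stood at -0.40, FLT3 at -0.29, MEIS1 at -0.28 and CD4 at -0.01. The mean level of 6 of 11 T and NK cell markers was 3.77 to 4.05 against 4.00 to 4.24, that of 2 of 7 B and plasma cell markers 5.23 to 5.33 against 5.13 to 5.34, and that of 4 of 9 erythroid and megakaryocyte markers 3.73 to 3.82 against 3.69 to 4.06. For 4 of 8 fibroblast and epithelial markers it was 4.47 to 4.65 against 4.67 to 4.83, without overlap, with EPCAM at 2.31 ± 0.10 and 2.53 ± 0.08. The part of these shifts in the values of the 8 genes was not tested. In a bulk RNA sample, fewer cells with a transcript and less of it per cell cannot be told apart.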

How the data were processed

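Expression was deposited on the log2 scale, 1 value a probe set and array. The authors made them with RMA in the oligo package, per the submitters' processing notes; no version or genome build is given in the sources used here. RMA sets arrays to a shared distribution, so changes are relative to the bulk of probe sets. Of 53617 probe sets, 16098 had a single symbol in the platform annotation. Probe sets without a symbol or with several were not used as genes. Symbols were updated by Entrez ID through a RefSeq gene table (GRCh38.p14, names only), and a gene was read from its probe set with the highest mean. All 14884 genes were fitted with limma 3.58.1 in R 4.3.3 (lmFit, eBayes; 2-sided, Benjamini-Hochberg over all genes, threshold 0.05), without a filter. Exact permutation tests over arrays used scipy 1.17.1 and are unadjusted over the 8 genes. Precision is limited by the number of arrays. On simulated data with 14884 genes, 200 of them changed, 32.8% of genes changed by log2 0.5, 89.6% by 1 and 100% by 2 were recovered. There were 6 false calls. The simulated noise was independent between genes, whereas genes of the shCD39 arrays deviated together, so these shares need not hold in the data. In the data, TP53INP1 (1.48) was called, and LYZ (1.07), TYROBP (1.06) and CSF1R (1.36) were not. The genes and lists were chosen with earlier results of these data known. Named list genes are those past the threshold, otherwise up to 2 with the largest change; others are said to be chosen after their values were seen. Alternatives were other normalizations, leaving out dim genes, averaging probe sets, a trended robust prior, weighting arrays, a replicate block, fitting all probe sets, and leaving out arrays. The main fit did not pair arrays by replicate number.

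Of 8 genes, 7 had a RefSeq promoter entry. BAX and BAK1 were printed as pore formers with a single start that is also the edge of the gene.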

Additional observations from a re-analysis of the deposited data

Results flagged for a closer look

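In 80 groups of 4 arrays (24 genes and 16 gene pairs, in either group), 4 held an array far from the other 3; chance flags about 5% of groups, which would be as many. USP13 read 6.09 in shCD39 array 4, where the other shCD39 arrays read 5.88 to 5.91. BCL2A1 read 3.89 in shCD39 array 4 against 3.69 to 3.72 in the other shCD39 arrays. DDIT3 read 4.04 in shCTRL array 4 against 5.37 to 5.59 in the other shCTRL arrays. The deviation of BCL2L11 minus that of BCL2L1 was 0.46 in shCTRL array 1 and -0.21 to -0.12 in the other shCTRL arrays.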

How the results depend on the processing

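BCL2, MCL1, CFLAR and BAX kept their direction in all 18 alternatives. The log2 fold change ran from -1.05 to -0.66 for BCL2 and from 0.24 to 0.35 for MCL1. For CFLAR it ran from 0.55 to 0.70 and for BAX from 0.37 to 0.65. With 1 probe set a gene and separate groups, only the other normalizations could have reversed these signs. In the remaining settings the direction was fixed in advance. Of the 8 genes, 1 (CFLAR) passed with dim genes left out, which tests fewer genes, and with array weights, 2 (BCL2 and CFLAR) without both arrays numbered 4, and 0 to 2 when single arrays were left out, the 2 without shCD39 array 4. For single genes an estimate near 0 changed sign. BCL2L1 read -0.00153 with median centring. BID read 0.0718 with quantile and 0.0690 with cyclic loess normalization, 0.0237 with array weights and 0.12 without both arrays numbered 4, where BCL2L11 read -0.0127. With single arrays left out, BCL2L1 ran from -0.15 to 0.18, BAK1 from -0.0191 to 0.21, BCL2L11 from -0.0703 to 0.15 and BID from -0.0788 to 0.16. Over all genes the count of 14 became 5 with quantile normalization, 64 without dim genes, 22 with a trended robust prior, 124 with array weights, 6 with the replicate block, 368 without both arrays numbered 4 (276 lower) and 6 over all probe sets, and ran from 0 (without shCTRL array 1) to 423 (without shCD39 array 4) with single arrays left out. Of the other death pathway genes, 1 passed as deposited, 2 without dim genes, 2 with array weights, 5 without both arrays numbered 4 and 0 to 4 with single arrays left out. The shift of BAX minus BCL2 ran from 1.05 to 1.56 with single arrays left out. Same-numbered arrays of the groups correlated at -0.04 to 0.06 in their deviations over genes, so no pairing was visible over genes as a whole. An effect shared by few genes would not show in this measure. With the replicate block 0 of the 8 genes passed, and CFLAR had an adjusted p of 0.116. Except where stated, the cause of a change was not tested. At 4 arrays a group, a log2 change of 0.5 is often missed.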

Other observations

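Some list genes with separate groups fall outside the naming rule, and their values were seen before they were chosen. Of the 67 measured list genes, 8.96% were higher and 5.97% lower without overlap, against 3.61% and 4.23% of all genes. MLKL, the executor of necroptosis, read 7.08 to 7.39 in shCD39 and 6.58 to 7.05 in shCTRL (log2 fold change 0.46, SE 0.13, limma adjusted p = 0.149). CYLD, a deubiquitinase of the death receptor complex, had 0.42 (SE 0.15, adjusted p = 0.228). Of p53 targets, TRIAP1 had 0.56 (SE 0.16, adjusted p = 0.149) and TP53I3 0.45 (SE 0.14, adjusted p = 0.168). The transcription factors SP1 and CREB1 were lower on every shCD39 array, at -0.36 (SE 0.11, adjusted p = 0.157) and -0.32 (SE 0.10, adjusted p = 0.182). None of these 6 passed the threshold over all genes.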
